A study of Mus musculus with 17 samples.

Results

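The 10 genes described here were chosen for their known link to glucocorticoid hormone and followed across the cells of the mouse hypothalamus: Fkbp5, Tsc22d3, Sgk1, Mt1, Mt2, Pdk4, Cdkn1a, Hif3a, Sult1a1 and Nr3c1. They were taken by name, 10 of the 23284 genes in the deposited count table, and all 10 are in it. The choice was made with earlier results of these data known. The hypothalamus of 3 mice deprived of food for 24 hours and of 5 mice fed normally was dissociated and profiled by Drop-seq, in which droplets pair each cell with a barcoded bead and every polyA transcript caught gets its own molecular tag (UMI). All 8 mice were B6D2F1 hybrids of a C57BL6 female and a DBA2 male, and no other treatment or allele is labelled. The labels place food-deprived mouse 1 with normal mouse 3 in batch 1 and food-deprived mouse 2 with normal mouse 4 in batch 2. Food-deprived mouse 3 (batch 4), normal mice 1 and 2 (batch 0) and normal mouse 5 (batch 3) have no mouse of the other feeding state in their batch.

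The annotated cells fall into 46 named clusters and 2348 cells under the name zothers, and hold 47340924 UMIs. A mouse contributed between 12637891 UMIs (food-deprived mouse 1, 3674 cells) and 290861 UMIs (normal mouse 1, 129 cells), and median depth per cell was 1444 to 2390 UMIs by mouse. In 9 of the 17 libraries Gapdh was nearly absent, at 4.36 to 8.53 CPM (the gene's UMIs scaled to a common total per library), against 151 to 811 CPM in the other 8. The Gapdh-poor libraries all come from batches 1 and 2, from food-deprived mice 1 and 2 and normal mice 3 and 4. Normal mouse 3 has no library of the other kind, and normal mice 1, 2 and 5 and food-deprived mouse 3 have no Gapdh-poor one. Barcodes of 161 cells occur in more than 1 library of the same mouse. The UMIs of a gene were summed over the cells of a mouse that carry 1 cluster name, or 1 class of names with the same stem, so that a level is a CPM within that class and the mouse is the replicate. The class names are those of the deposited file. The marker genes of each stem led in MO (myelinating oligodendrocytes), OPC (their precursors), Astro (astrocytes), Ependy (ependymal cells), Epith (endothelial cells) and Micro (microglia), and general neuron genes led in GABA and Glu. In IMO the MO genes (43210 CPM) stood above the IMO genes (9545 CPM), and in Tany (tanycytes) the Astro genes (5776 CPM) above the tanycyte genes (2869 CPM). Epith also carried mural and fibroblast genes at 7060 CPM beside endothelial genes at 16010 CPM.

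Glucocorticoids are steroid hormones of the adrenal cortex, released under control of the hypothalamus and pituitary and known to increase during fasting in mice. They enter cells and bind the glucocorticoid receptor, encoded by Nr3c1, which is held by Hsp90 and its co-chaperones until the hormone binds and then acts on DNA as a transcription factor. Direct targets include Fkbp5, a co-chaperone that lowers the receptor's affinity for hormone, Tsc22d3, a leucine zipper protein that dampens inflammatory signalling, and Sgk1, a kinase that controls ion channels and transporters. Mt1 and Mt2 encode metallothioneins, small cysteine-rich proteins that bind zinc and copper and are induced both by metals and by glucocorticoids.

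The promoters of 3 genes are printed, those of Mt1 and Mt2, taken by name, and the Sgk1 window with a match. They hold letters by which the receptor, or the metal-responsive factor of the metallothioneins, is known to bind. Hif3a also holds a match and is not printed. The sequences are RefSeq's, on build GRCm38.p6, plus strand, 250 bases before the annotated start, and 9 of the 10 genes had an entry (17 entries in all). The full glucocorticoid palindrome, AGAACA and TGTTCT with any 3 bases between them, which reads the same on both strands, was found in 3 of 32851 windows of this length (0.00913%). Among the members it was found in Sgk1 alone, in 1 of its 6 annotated promoters. A looser form, GNACA and TGTNC with any 3 bases between them, was found in 127 windows (0.387%) and, among the members, in Sgk1 and Mt1. The metal response core TGCGCNC or TGCACNC, searched on both strands, was found in 7032 windows (21.4%), and in Mt1, Mt2 and Hif3a. In the Sgk1 window (chr10:21993640-21993889) the capitals mark the full palindrome, in Mt1 (chr8:94178839-94179088) first the looser palindrome and then a metal core, and in Mt2 (chr8:94172368-94172617) 3 metal cores, the last of them read on the minus strand. The 2 palindromes overlap in Sgk1, and no other motifs overlap in the 3 windows.
Sgk1: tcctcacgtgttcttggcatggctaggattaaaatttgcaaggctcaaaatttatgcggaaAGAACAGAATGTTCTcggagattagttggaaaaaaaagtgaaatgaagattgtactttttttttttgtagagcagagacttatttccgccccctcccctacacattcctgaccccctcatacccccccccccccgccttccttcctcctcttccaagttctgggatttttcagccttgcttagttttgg
Mt1: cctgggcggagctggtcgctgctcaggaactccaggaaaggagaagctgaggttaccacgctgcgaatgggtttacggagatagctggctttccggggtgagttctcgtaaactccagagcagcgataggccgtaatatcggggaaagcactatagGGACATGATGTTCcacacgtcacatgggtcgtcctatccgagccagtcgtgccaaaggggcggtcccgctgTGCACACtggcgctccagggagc
Mt2: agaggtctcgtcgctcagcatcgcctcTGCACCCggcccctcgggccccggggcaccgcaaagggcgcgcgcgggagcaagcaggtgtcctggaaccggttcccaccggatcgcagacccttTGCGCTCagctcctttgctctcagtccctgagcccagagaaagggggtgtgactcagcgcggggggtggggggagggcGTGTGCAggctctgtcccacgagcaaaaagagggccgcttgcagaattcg
The palindrome of Sgk1 lies 189 to 175 bases before the start, and the looser one of Mt1 lies 94 to 82 bases before it. The Mt1 start lies 6471 bases after that of Mt2 on the same strand. These are letter matches only, and no binding was measured.

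The members differed widely in where they were found. Levels are means ± SD over mice, a mouse counting where a cluster has 10 or more of its cells, in the 19 clusters that have at least 3 such mice, 8 of them neuronal, and they are a description, since the clusters were made from the same expression values. Nr3c1, the receptor gene, had UMIs in every one of these clusters. Its highest mean was 380 ± 166 CPM in Epith1 (n = 6 mice), followed by 294 CPM in GABA14, 290 CPM in GABA15 and 278 CPM in OPC, and each of these steps was smaller than the SDs. The lowest mean was 18.4 CPM in GABA9. The plot of levels by cluster shows this broad pattern beside the narrow ones described next.

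**Figure D1:**
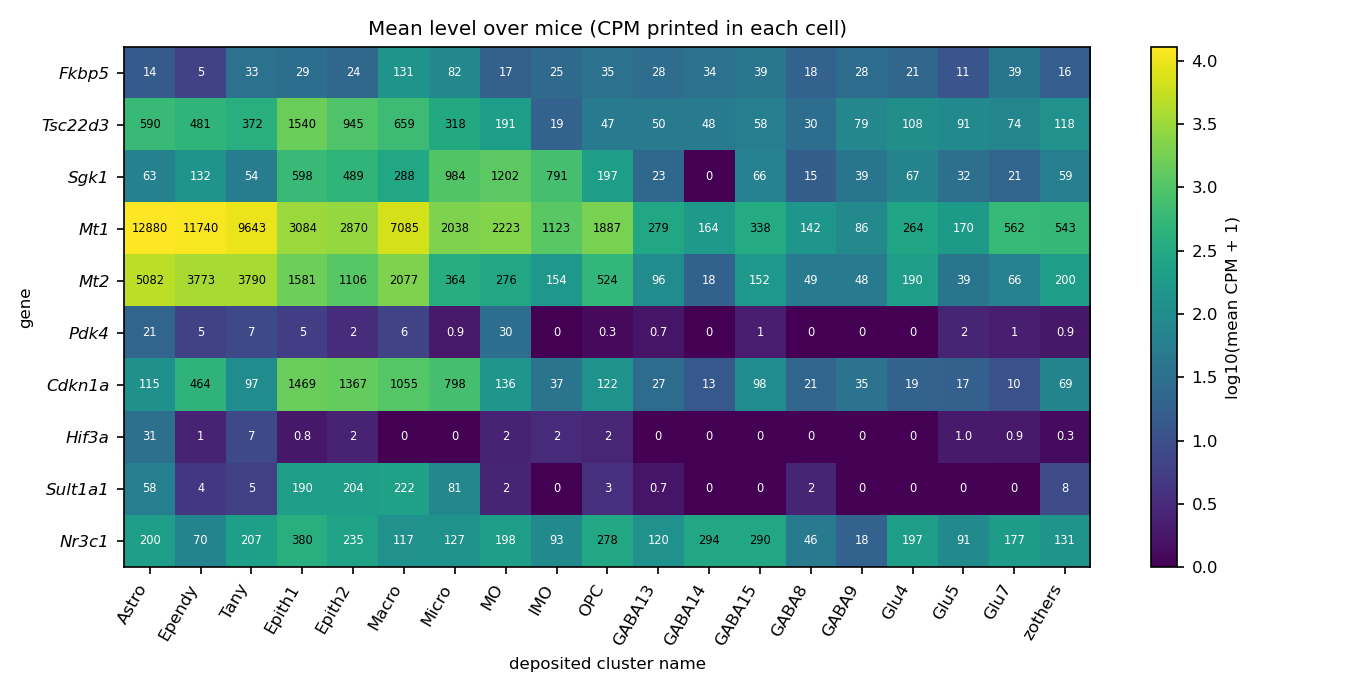
Mean level of each of the 10 genes (rows) in the 19 clusters with at least 3 mice of at least 10 cells (columns), coloured by log10 of the mean CPM plus 1, with the mean CPM printed in each cell. Mt1 and Mt2 peak in Astro, Tany and Ependy, Sgk1 in MO, and Tsc22d3 and Cdkn1a in Epith1, while Nr3c1 lies between 18.4 and 380 CPM throughout.

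The metallothioneins were highest in astrocytes and the ventricular cells. Mt1 averaged 12880 ± 3155 CPM in Astro (n = 6 mice), 11740 ± 2921 CPM in Ependy (n = 8) and 9643 ± 2824 CPM in Tany (n = 8), where each step to the next is within the SDs. Macro, the macrophage cluster, followed at 7085 ± 3332 CPM (n = 5). Epith1 (3084 CPM) and Epith2 (2870 CPM) came next, before MO (2223 CPM), Micro (2038 CPM) and OPC (1887 CPM). Macro holds microglial (9685 CPM), MO (5966 CPM), mural and fibroblast (4644 CPM) and endothelial markers (2790 CPM) beside its own (11540 CPM), and their part in its levels here and below was not tested. For Mt1, the 8 neuronal clusters lay between 86.2 CPM in GABA9 and 562 CPM in Glu7. Mt2 followed nearly the same order, with 5082 ± 1483 CPM in Astro, 3790 ± 1411 CPM in Tany and 3773 ± 1602 CPM in Ependy, and neuronal means of 17.9 to 190 CPM. Of 9233 genes with at least 50 CPM in a cluster, Mt2 was the one most like Mt1 over the 19 cluster means (Pearson r = 0.947 on log2(CPM + 1), as a description). Apoe, a lipid carrier of astrocytes and macrophages, was among the next most alike (r = 0.928).

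The balance between the pair was not constant. Within a mouse, Mt2 UMIs as a percentage of Mt1 UMIs averaged 12.1% ± 3.13 in MO (SD, n = 8 mice), 12.7% ± 7.65 in IMO (n = 5) and 15.6% ± 1.08 in Micro (n = 5). The same percentage averaged 39.6% ± 5.96 in Astro (n = 6), 41.1% ± 3.29 in Tany (n = 6) and 45.6% ± 10.1 in Epith (n = 6), and lay between these groups at 26.0% ± 9.69 in OPC, 27.9% ± 7.70 in Glu, 29.4% ± 5.54 in GABA and 33.3% ± 7.26 in Ependy. MO lay below Astro in 6 of the 6 mice that have both, and Micro in 5 of 5. By mouse, the percentage in MO was 10.8%, 11.9% and 16.5% in food-deprived mice 1 to 3, against 6.09%, 12.2%, 14.4%, 10.9% and 14.2% in normal mice 1 to 5, so the feeding groups overlap.

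**Figure D2:**
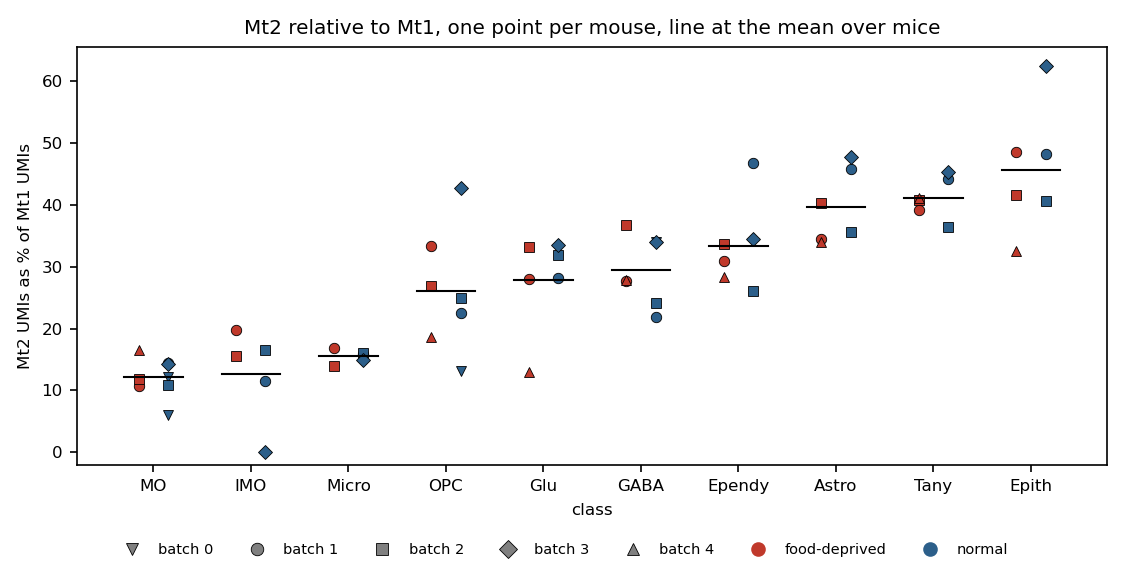
Mt2 UMIs as a percentage of Mt1 UMIs (y axis) in each class (x axis, ordered by the mean), 1 point per mouse, food-deprived at left in red and normal at right in blue, with marker shapes for the labelled batch and a line at the mean over mice. MO, IMO and Micro lie at 0.0 to 19.7% and Astro and Tany at 33.9 to 47.6%, and the feeding groups overlap in each class.

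Sgk1, Tsc22d3 and Cdkn1a each peaked in other cells. Sgk1 averaged 1202 ± 569 CPM in MO (n = 8 mice), 984 ± 340 CPM in Micro (n = 6) and 791 ± 219 CPM in IMO (n = 5), steps within the SDs, against a median of 27.6 CPM over the 8 neuronal clusters. Sh3glb1, Elovl1 and Nras were most like it (r = 0.924, 0.917 and 0.915 over the 19 clusters). Tsc22d3 was highest in Epith1 at 1540 ± 255 CPM (n = 6) and Epith2 at 945 ± 238 CPM (n = 6), a gap wider than both SDs, and Macro, Astro and Ependy followed at 659, 590 and 481 CPM. Its neuronal means ran from 29.9 CPM in GABA8 to 108 CPM in Glu4. The genes most like it were Xaf1, Stard8 and Smad6 (r = 0.916, 0.905 and 0.905). Epith1 carried blood genes at 5905 CPM and Epith2 mural and fibroblast genes at 11460 CPM beside their endothelial genes, and the part of those cells in these levels was not tested.

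Cdkn1a, the cyclin-dependent kinase inhibitor p21, which stops the cell cycle, averaged 1469 ± 498 CPM in Epith1, 1367 ± 243 CPM in Epith2, 1055 ± 387 CPM in Macro and 798 ± 220 CPM in Micro, a run in which no neighbours differ by more than the larger SD. Ependy stood at 464 ± 328 CPM (n = 8), and the neuronal clusters at 9.50 CPM (Glu7) to 97.7 CPM (GABA15). The gene most like it was Csrnp1 (r = 0.951), followed by Gbp3 (r = 0.921) and Nfkbia (r = 0.92), the inhibitor of NF-kappaB and itself a glucocorticoid-induced gene.

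Hif3a and Pdk4 were low throughout, with their highest means in Astro and MO, and with so few UMIs a mean of 0 does not show absence. Hif3a, an alpha subunit of the hypoxia-inducible factor family, averaged 31.5 ± 16.7 CPM in Astro (n = 6 mice) and 7.14 ± 12.9 CPM in Tany, and its mean was 0 in 8 of the 19 clusters. It had a UMI in 62 of 1148 Astro cells (5.4%, median depth 1300 UMIs), against 1 of 1392 GABA cells (0.0718%, median depth 3825 UMIs). Cideb, Ptplb and the astrocyte enzyme Aldh1l1 were most like Hif3a (r = 0.925, 0.908 and 0.853). Pdk4, the kinase that shuts off pyruvate dehydrogenase and spares glucose during fasting in muscle and liver, averaged 29.7 ± 14.9 CPM in MO (n = 8) and 20.7 ± 10.9 CPM in Astro, and at most 7 CPM elsewhere. It had a UMI in 264 of 3541 MO cells (7.46%), against 3 of 1392 GABA cells (0.216%). Olfml1 was most like it (r = 0.854).

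Sult1a1, a phenol sulfotransferase, averaged 222 ± 96.3 CPM in Macro (n = 5 mice), 204 ± 143 CPM in Epith2, 191 ± 92.3 CPM in Epith1, 81.1 ± 38.2 CPM in Micro and 58.4 ± 42.6 CPM in Astro. Everywhere else its mean was at most 7.81 CPM, and it was 0 in 7 clusters. Trim30a was most like it (r = 0.957). Fkbp5 was low in every cluster. Its highest means were 131 ± 103 CPM in Macro, from 52 UMIs, and 81.9 ± 58.5 CPM in Micro, and the neuronal clusters lay between 11.0 CPM in Glu5 and 39.4 CPM in GABA15. Actr3 was most like Fkbp5 (r = 0.846), the weakest of the best matches together with that of Pdk4 (0.854) and of Nr3c1 (Asap1, r = 0.859).

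Food-deprived and normal mice were compared in each of 10 classes by edgeR's quasi-likelihood test on the summed counts, food-deprived over normal, with adjustment over all genes tested in the class. Of the 100 pairs of member and class, 68 had enough counts to be tested, and 0 passed an adjusted p of 0.05. The smallest adjusted p was 0.561, for Mt1 in MO. At an unadjusted p under 0.05 there were 11 pairs, 10 higher and 1 lower in food-deprived mice. Over all genes the share was 1.84% (GABA) to 4.83% (IMO) by class. The fold change was positive in 49 pairs and negative in 19, beside 49.3% (Ependy) to 52% (Micro) of all genes positive. The pairs share mice and genes, so they are not independent. Food-deprived mouse 2 had the highest value in 23 of the 68 pairs and normal mouse 5 the lowest in 26.

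The labels allow a second view, in which the batch is a block. There the feeding effect comes from batches 1 and 2 alone, since the other batches hold 1 feeding state. Food-deprived mouse 3 and normal mice 1, 2 and 5 add nothing to it. The p-values and SEs of this view rest on how closely batches 1 and 2 agree, not on the spread over all mice. In MO they rest also on the 2 mice of batch 0. With the block, 1 of the 68 pairs passed (Mt2 in OPC), 16 were under an unadjusted p of 0.05, and 16 changed sign. Small p-values were more frequent over all genes too. In MO, 598 of 8058 genes were under an unadjusted p of 0.05 with the block, against 320 by feeding state alone. Side by side, food-deprived was higher in 39 pairs and lower in 29 in batch 1, and higher in 46 and lower in 22 in batch 2. It was higher in both batches in 24 pairs, lower in both in 7, and the batches differed in sign in 37.

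**Figure D3:**
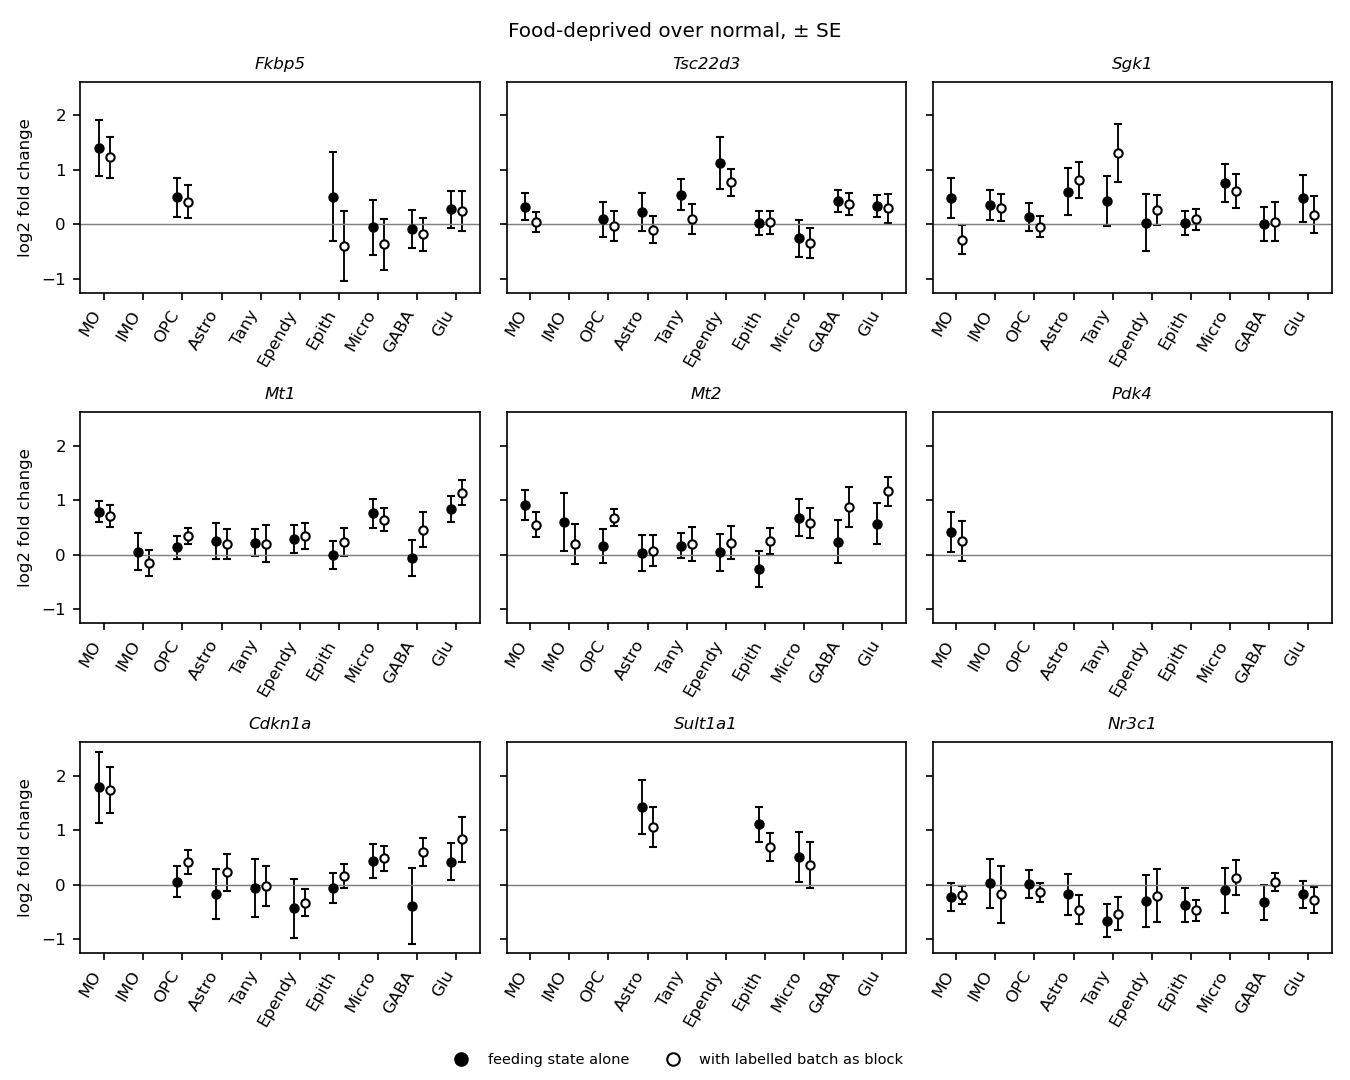
Log2 fold change of food-deprived over normal (y axis, ± SE) for 9 of the genes in the classes in which they were tested (x axis), from feeding state alone (filled) and with the labelled batch as a block (open). Hif3a was tested in no class. Most points lie above 0 for Mt1, Mt2, Sgk1 and Tsc22d3 and below 0 for Nr3c1, and the block turns Sgk1 in MO to -0.28.

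MO, the only class with all 8 mice (2028 cells in food-deprived and 1513 in normal mice), gave the largest share of the unadjusted differences. Of the 8 members tested there, 7 were higher, with a median log2 fold change of 0.64 (0.40 with the block), beside -0.002 over all 8058 genes tested. At an unadjusted p under 0.05 there were 4, Mt1, Mt2, Fkbp5 and Cdkn1a, beside 3.97% of all genes tested. None passed the adjusted threshold in edgeR, where 0 of 8058 genes did (0.0%), or with the block, where 17 did (0.211%). DESeq2 called 1 gene in MO. None of the members separated the groups, beside 2.16% of all genes that lay higher in every food-deprived mouse.

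Mt1 in MO stood at 2393, 3377 and 3260 CPM in food-deprived mice 1 to 3, against 1536, 2483, 1726, 1711 and 1299 CPM in normal mice 1 to 5. Normal mouse 2, a sum of 36 cells, is the only normal value above the lowest food-deprived one. The means were 3010 ± 537 CPM in food-deprived mice (SD, n = 3) and 1751 ± 444 CPM in normal mice (n = 5), a log2 fold change of 0.79 ± 0.20 (SE, edgeR adjusted p = 0.561). Within batches the log2 ratio was 0.47 in batch 1 and 0.98 in batch 2, and the block gave 0.71 ± 0.20 (adjusted p = 0.25). In the Gapdh-poor libraries alone, with the block, Mt1 passed (adjusted p = 0.0105).

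Mt2 in MO had 257, 401 and 538 CPM in food-deprived mice 1 to 3, against 93.5, 303, 248, 186 and 184 CPM in normal mice 1 to 5. Food-deprived mouse 1 lay among the normal mice. The log2 fold change was 0.91 ± 0.28 (edgeR adjusted p = 0.838) and 0.55 ± 0.23 with the block, and the log2 ratios were 0.05 in batch 1 and 1.11 in batch 2. Fkbp5 had 10.1, 35.8 and 22.1 CPM in food-deprived mice, against 26.7, 25.2, 6.60, 11.0 and 1.86 CPM in normal mice 1 to 5. The groups overlap, and the 2 normal mice of batch 0 (2 UMIs each) are above food-deprived mouse 3 (3 UMIs). Normal mouse 5 had 1 UMI, so the order of these 4 mice rests on very few counts. Its log2 fold change was 1.40 ± 0.52, with 0.61 in batch 1 and 1.70 in batch 2, and without food-deprived mouse 2 it was 0.39.

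Cdkn1a in MO was set by 1 mouse. It had 66.8, 481 and 95.9 CPM in food-deprived mice 1 to 3, against 0, 303, 48.4, 65.5 and 29.8 CPM in normal mice 1 to 5. A log2 fold change of 1.79 ± 0.66 became 0.19 without food-deprived mouse 2, and the ratios were 0.47 in batch 1 and 2.88 in batch 2. In food-deprived mouse 2 the gene was high in each of the 3 libraries, at 444, 552 and 481 CPM, and 45.1% of its 858 MO cells had a UMI, against 10.9% and 9.84% in food-deprived mice 1 and 3 and 0.0 to 27.8% in the normal mice. Median depth was 2416.5 UMIs per MO cell in food-deprived mouse 2 and 2421 UMIs in normal mouse 4 of the same batch, where 7.95% of cells had a UMI.

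**Figure D4:**
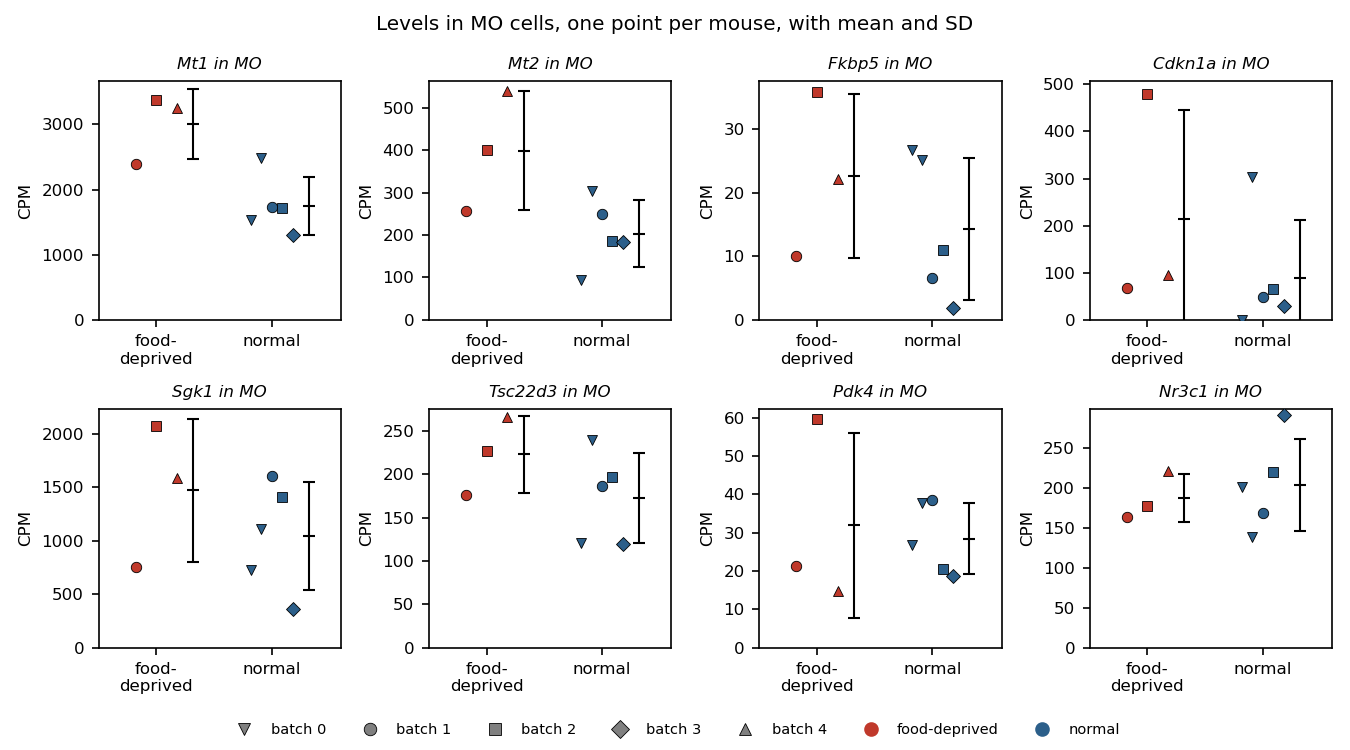
Level in MO (y axis, CPM) of the 8 genes tested there, 1 point per mouse, food-deprived at left in red and normal at right in blue, with marker shapes for the labelled batch and the mean with SD beside each group (bars stop at 0). Mt1 lies at 2393 to 3377 CPM in food-deprived and 1299 to 2483 CPM in normal mice, and the high Cdkn1a values are 1 mouse of each feeding state.

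The other members tested in MO differed by less than 2 SE, and their groups overlap. Sgk1, at its highest here, had 754, 2076 and 1586 CPM in food-deprived mice, against 721, 1109, 1602, 1407 and 360 CPM in normal mice 1 to 5. The log2 fold change of 0.49 ± 0.37 had the opposite sign with the block (-0.28 ± 0.27), since the ratio was -1.09 in batch 1 and 0.56 in batch 2. Tsc22d3 had 176, 227 and 266 CPM, against 120, 240, 186, 196 and 119 CPM, a log2 fold change of 0.33 ± 0.24 and of 0.04 with the block.

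Pdk4 in MO had 21.2, 59.6 and 14.8 CPM in food-deprived mice, against 26.7, 37.8, 38.5, 20.5 and 18.6 CPM in normal mice. Its log2 fold change was 0.42 ± 0.37, and -0.49 without food-deprived mouse 2, with ratios of -0.86 in batch 1 and 1.54 in batch 2. Nr3c1 had 164, 178 and 221 CPM, against 200, 139, 168, 219 and 291 CPM, a log2 fold change of -0.23 ± 0.25 that was -0.04 without normal mouse 5. Both genes overlap between the groups. Beside the MO values, the 5 general neuron markers summed to 377 to 502 CPM in the food-deprived mice and 80.2 to 315 CPM in the normal mice, with no overlap and none of the 5 at 0, while the 7 Astro markers overlapped at 177 to 391 and 160 to 372 CPM. The part of neuronal RNA in the MO differences was not tested.

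Sult1a1, like Mt1, had all food-deprived values above all normal ones in 2 classes. In Epith it had 150, 340 and 348 CPM in food-deprived mice 1 to 3, against 140, 145 and 78.2 CPM in normal mice 3 to 5. The step between the groups is narrow in batch 1. The means were 280 ± 112 CPM in food-deprived and 121 ± 37.1 CPM in normal mice (SD, n = 3 each), with a log2 fold change of 1.11 ± 0.33 and of 0.70 ± 0.26 with the block (edgeR adjusted p = 0.981). The log2 ratio was 0.10 in batch 1 and 1.23 in batch 2, so the difference was small in batch 1 and large in batch 2. Of 7410 genes tested in Epith, 4.7% lay higher in every food-deprived mouse, 3.5% were under an unadjusted p of 0.05, and 0.0% passed after adjustment in either fit. DESeq2 called 0 genes in Epith. The 7 Astro markers were also higher in Epith, at 309 to 472 CPM in food-deprived and 208 to 286 CPM in normal mice, and the 7 Tany markers lower, at 281 to 299 and 315 to 411 CPM, and their part was not tested.

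In Astro, Sult1a1 had 58.5, 125 and 83.1 CPM in food-deprived mice 1 to 3, against 33.3, 50.7 and 0 CPM in normal mice 3 to 5. Both batches go the same way, with log2 ratios of 0.81 and 1.30, and the groups do not overlap by mouse. The values rest on 31 and 68 UMIs in food-deprived mice 1 and 2, against 16 and 9 in normal mice 3 and 4. By library the values overlap. Normal mouse 4 had 15.9 and 74.0 CPM (1 and 8 UMIs), and food-deprived mouse 1 had 30.9 to 89.5 CPM. The log2 fold change was 1.43 ± 0.50, and 1.06 ± 0.37 with the block (edgeR adjusted p = 0.354) and 0.81 in Gapdh-poor libraries with the block. Of the 7 members tested in Astro this was the 1 that separated the groups, beside 3.72% of 5830 genes, and the 1 under an unadjusted p of 0.05, beside 3.16%. After adjustment 0.0% of genes passed, 0.566% with the block and 0 with DESeq2. The 5 OPC markers lay lower in Astro of food-deprived mice (22.2 to 38.5 CPM) than of normal mice (91.7 to 124 CPM), and their part was not tested. In Micro, the third class in which it was tested, Sult1a1 had 55.6 and 153 CPM in food-deprived mice 1 and 2, against 74.0, 80.1 and 80.5 CPM in normal mice 3 to 5, values that overlap.

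Hif3a did not reach the count needed for a test in any class, and its Astro values rest on 1 to 31 UMIs a mouse. They were 30.2, 56.8 and 44.3 CPM in food-deprived mice 1 to 3, against 16.7, 28.2 and 12.5 CPM in normal mice 3 to 5. The groups do not overlap, though only just, and the log2 ratios were 0.86 in batch 1 and 1.01 in batch 2. Pdk4 was not tested in Astro either, at 32.1, 18.3 and 22.2 CPM in food-deprived mice, against 33.3, 5.64 and 12.5 CPM in normal mice.

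Microglia had 2 food-deprived and 3 normal mice with enough cells. Mt1 there had 2011 and 2048 CPM in food-deprived mice 1 and 2, against 1332, 1433 and 1073 CPM in normal mice 3 to 5. These groups lie apart, with a log2 fold change of 0.76 ± 0.27 and ratios of 0.59 in batch 1 and 0.52 in batch 2, and the block gave 0.64 ± 0.21. Mt2 had 338 and 287 CPM, against 212, 231 and 161 CPM, a log2 fold change of 0.68 ± 0.34. Sgk1 had 1269 and 1346 CPM in food-deprived mice, against 1215, 669 and 536 CPM in normal mice. The 3 genes each lay higher in every food-deprived mouse, as did 7.66% of 5133 genes in a class of so few mice. The Sgk1 log2 fold change was 0.76 ± 0.34, but the batch 1 ratio was 0.06, beside 1.01 in batch 2, and without normal mouse 3 it was 1.18. Of 8 members tested in Micro, 2 (Mt1 and Sgk1) were under an unadjusted p of 0.05, beside 2.59% of genes, and 0.0% of genes passed after adjustment in either edgeR fit and 0 in DESeq2.

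Among neurons, Mt1 in Glu, the glutamatergic class, had 286, 372 and 291 CPM in food-deprived mice 1 to 3, against 156, 143 and 232 CPM in normal mice 3 to 5. The groups do not overlap and both batches go the same way, with log2 ratios of 0.87 and 1.38. The log2 fold change was 0.83 ± 0.24, and 1.14 ± 0.22 with the block (edgeR adjusted p = 0.493), and in the Gapdh-poor libraries alone with the block it was 1.18 (adjusted p = 0.019). It was the 1 of 7 members in Glu that separated the groups, beside 4.07% of 8903 genes, and the 1 under an unadjusted p of 0.05, beside 3.55%. After adjustment 0.0% of genes passed in either fit and 0 in DESeq2. Mt1 is carried at far higher levels by glia. In Glu cells the 7 Astro markers summed to 356 to 425 CPM in food-deprived and 221 to 429 CPM in normal mice, which overlap. The 7 MO markers summed to 1173, 942 and 365 CPM in food-deprived mice 1 to 3. Normal mice 3 to 5 had 583, 456 and 302 CPM of them. These groups overlap too, but the MO markers were higher in the food-deprived mouse of both batches. The part of glial RNA in the Mt1 values was not tested. The mural and fibroblast markers lay lower, at 13.4 to 14.4 CPM against 23.6 to 95.4 CPM. In the other libraries alone, which keep Gapdh, the Mt1 log2 fold change was 0.53.

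In GABA, the GABAergic class, the same gene had 324, 481 and 194 CPM in food-deprived mice, against 488, 391, 210 and 305 CPM in normal mice 2 to 5, a log2 fold change of -0.06 ± 0.33 with batch ratios of -0.27 and 1.20. Tsc22d3 was the 1 of 7 members in GABA with every food-deprived value higher, at 68.1, 55.5 and 69.8 CPM, against 39.4, 55.3, 40.8 and 48.4 CPM in normal mice 2 to 5. Food-deprived mouse 2 and normal mouse 3 were nearly equal, and the log2 fold change was 0.43 ± 0.21. Beside it, 2.14% of 9521 genes lay higher in every food-deprived mouse, 1.84% were under an unadjusted p of 0.05, a level that 0 members reached, and 0.0% passed after adjustment in either fit and 0 in DESeq2. The 6 ependymal markers lay lower in GABA of food-deprived mice (23.7 to 30.4 CPM) than of normal mice (33.6 to 70.9 CPM), and their part was not tested.

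The ventricular cells gave 1 unadjusted difference each. Tsc22d3 in Ependy had 302, 974 and 647 CPM in food-deprived mice 1 to 3, against 186, 533 and 151 CPM in normal mice 3 to 5. The groups overlap, but in batches 1 and 2 the food-deprived mouse is above the normal mouse, with log2 ratios of 0.70 and 0.87. Its log2 fold change was 1.13 ± 0.47, and 0.77 ± 0.24 with the block (edgeR adjusted p = 0.305). It was 0.68 without food-deprived mouse 2 and 1.86 without normal mouse 4. This was 1 of 6 members under an unadjusted p of 0.05, beside 4.49% of 5363 genes, and after adjustment 0.0% passed, 0.149% with the block and 0 with DESeq2. The 6 ependymal markers themselves lay lower in Ependy of food-deprived mice, at 15120 to 15560 CPM, than of normal mice, at 16360 to 18480 CPM, and their part was not tested.

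Nr3c1 in Tany was the 1 pair that was lower at an unadjusted p under 0.05. It had 139, 166 and 226 CPM in food-deprived mice 1 to 3, against 191, 266 and 389 CPM in normal mice 3 to 5. Food-deprived mouse 3 overlaps the normal mice, and the batch ratios were -0.45 and -0.68. The log2 fold change was -0.66 ± 0.30, -0.53 ± 0.31 with the block and -0.30 without normal mouse 5. The 6 IMO markers lay higher in Tany of food-deprived mice (163 to 171 CPM) than of normal mice (138 to 158 CPM), and their part was not tested. Of 5975 genes tested in Tany, 3.11% were under an unadjusted p of 0.05, 0.0% passed after adjustment, 0.1% with the block and 0 with DESeq2. Across classes the receptor gene was lower in 8 of 10, from -0.66 in Tany to 0.03 in IMO, and none of these passed. For Nr3c1, 14 clusters had at least 20 UMIs in the 4 mice of batches 1 and 2. It was lower in food-deprived mice of both batches in 8 of them and higher in both in 0. It was higher in 5 clusters in batch 1 and in 1 in batch 2. These clusters share libraries, so the counts compare 1 pair of mice in each batch. The same counts over all genes were not made.

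Mt2 in OPC was the only pair to pass with the block. It had 753, 712 and 239 CPM in food-deprived mice 1 to 3, against 213, 504, 415 and 881 CPM in normal mice 2 to 5. The groups overlap over their whole range, with the highest value in normal mouse 5 and the lowest in normal mouse 2, and feeding state alone gave 0.16 ± 0.31. In batch 1 it was 753 CPM in the food-deprived and 504 CPM in the normal mouse, and in batch 2 it was 712 and 415 CPM. This gave 0.68 ± 0.16 with the block (edgeR adjusted p = 0.0149). That p-value rests on how closely the log2 ratios of batches 1 and 2 agree (0.58 and 0.78), not on the spread over all the mice. Of 9259 genes in OPC, 0.216% passed with the block and 0.0% without it, and 0 passed in DESeq2. Of the 7 members tested, 0 were under an unadjusted p of 0.05 by feeding state alone, beside 3.09% of genes. In IMO, 0 of 4 members were, beside 4.83% of 3188 genes, 0.0% passing after adjustment, 0.0627% with the block and 0 with DESeq2.

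**Figure D5:**
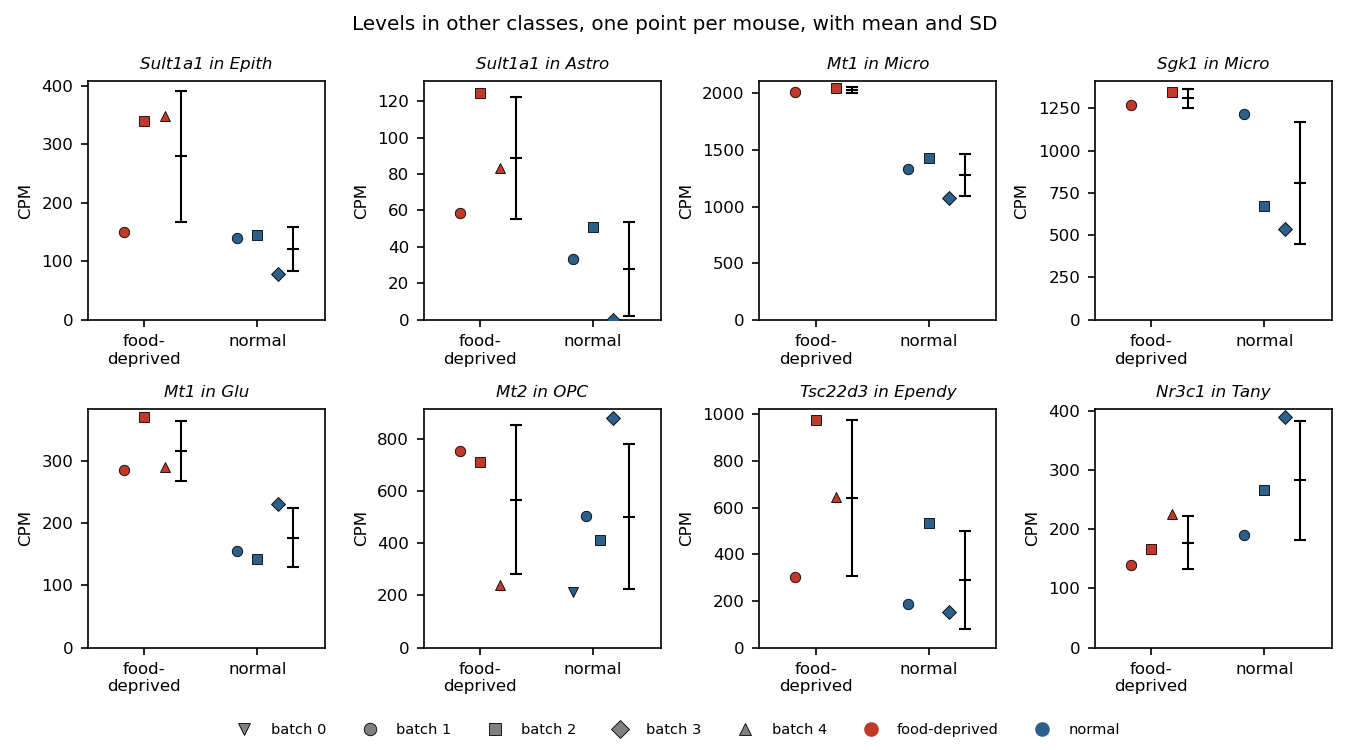
Level (y axis, CPM) of 8 pairs of gene and class outside MO, 1 point per mouse, food-deprived at left in red and normal at right in blue, with marker shapes for the labelled batch and the mean with SD beside each group. Sult1a1 in Epith and Astro, Mt1 in Micro and Glu and Sgk1 in Micro do not overlap between the groups, while Mt2 in OPC, Tsc22d3 in Ependy and Nr3c1 in Tany do.

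Taken by batch, the metallothioneins gave unlike counts in the 2 pairs of mice. In batch 2, Mt1 and Mt2 were higher in the food-deprived mouse in 14 of 14 clusters with at least 20 UMIs of the gene. In batch 1, Mt1 was higher in 5 of them (Epith2, Glu4, MO, Micro and OPC) and Mt2 in 7. Sgk1 was higher in 11 of 13 clusters in batch 1 and in 8 of 13 in batch 2, but in both in only 6, and Fkbp5 was higher in 2 of 11 in batch 1 and in 11 of 11 in batch 2. Clusters of a mouse share its libraries, so these counts compare 1 pair of mice in each batch, and the same counts over all genes were not made.

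Whether a member responded differently in 2 classes was tested directly by edgeR as a class by feeding term with the mouse as block. Between MO and Astro, 0 of 9 members passed, where 2 of 8427 genes did (0.0237%), and 1 member, Cdkn1a, was under an unadjusted p of 0.05, beside 4.38% of genes. Its response was 1.94 ± 0.48 log2 units larger in MO (adjusted p = 0.446). Between MO and GABA, 0 of 8 members and 0.0% of 10537 genes passed, and Fkbp5, Mt1 and Cdkn1a were under an unadjusted p of 0.05, beside 3.82% of genes. The differences were 1.54 ± 0.46 for Fkbp5, 0.84 ± 0.29 for Mt1 and 1.67 ± 0.38 for Cdkn1a (adjusted p = 0.88, 1 and 0.324). The Cdkn1a differences passed once food-deprived mouse 1 was left out, at 2.68 against Astro (adjusted p = 0.000836) and 2.46 against GABA (adjusted p = 1.07e-06). The first also passed without normal mouse 4, at 2.46 (adjusted p = 0.00411). Without food-deprived mouse 2 the Cdkn1a differences were 1.11 against Astro and 0.80 against GABA, neither passing, and the Fkbp5 difference was 1.00. With batches 1 and 2 alone the Mt1 difference was 0.31.

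Other genes of the pathway were read in MO from 4 lists. Of 21 further glucocorticoid-induced genes 14 were tested and all 14 had a positive fold change. Their median log2 was 0.34 (0.23 with the block, 11 positive), beside -0.002 over all genes. In other classes the same list had 6 higher and 8 lower in OPC (median -0.01) and 9 and 5 in Astro (0.15). It had 14 and 3 in Epith (0.24), 10 and 4 in Tany (0.23) and 8 and 5 in Ependy (0.29). In Micro it had 8 and 3 (0.14), in GABA 7 and 3 (0.13), in Glu 7 and 3 (0.10) and in IMO 3 and 1 (0.33). Like the members, these lists were chosen with earlier results of these data known, so counts by direction here and above are a description. In MO, Plin4, a lipid droplet coat protein, had 63.3, 240 and 103 CPM in food-deprived mice 1 to 3. Normal mice 1 to 5 had 26.7, 75.6, 15.4, 52.8 and 0 CPM. Only normal mouse 2 is above the lowest food-deprived value. Its log2 fold change was 2.34 ± 0.57, and with the block it passed at 2.10 ± 0.22 (edgeR adjusted p = 7.37e-05). Phyhd1, a dioxygenase domain protein, had 29.2, 43.8 and 0 CPM, against 0, 75.6, 3.85, 4.73 and 1.86 CPM, with the extremes in both groups. It also passed with the block, at 3.01 ± 0.45 (adjusted p = 0.00355). The higher neuron markers given for MO stand beside these genes too, and their part was not tested.

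Fam107a, an actin-associated protein induced by stress hormone in the brain, had 23.3, 47.9 and 29.5 CPM in food-deprived mice, against 13.4, 50.4, 10.4, 12.6 and 9.32 CPM in normal mice 1 to 5, a log2 fold change of 1.48 ± 0.37. The other genes named by rank were Arrdc2 (0.72), Ddit4 (0.53) and Nfkbia (0.38), in log2 units. Of the genes that handle the receptor, 9 were tested in MO, 2 higher and 7 lower, with a median log2 of -0.33. Other classes leaned the same way, with 0 higher and 9 lower in OPC, Micro and GABA, and 0 and 8 in Tany. The counts were 1 and 6 in IMO and Ependy, 2 and 7 in Astro and Glu, and 3 and 6 in Epith. Medians ran from -0.88 in Ependy to -0.09 in Astro. In MO, Hspa8, a constitutive chaperone, stood at -0.57 ± 0.25 and Ptges3, the p23 co-chaperone, at -0.32. The corepressor Ncor1 stood at -0.37, lower in every food-deprived mouse as were 1.25% of all MO genes, and 0 of the list passed. The zinc and metallothionein list had 2 higher and 2 lower of 4 (Mt3 0.43, Mtf1 0.16, Slc39a10 -0.52). The 13 early response genes, which tissue dissociation can induce, had 11 higher and 2 lower with a median of 0.17 and 0 passing (Btg2 0.39, Nr4a1 0.36, Hspa1b -0.52). In other classes the same list had 0 higher and 12 lower in Astro (median -0.68), 0 and 13 in GABA (-0.38), 1 and 11 in Glu (-0.36) and 11 and 2 in Micro (0.30), with 0 passing by feeding state alone. Its part in the values of the members there was not tested.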

How the data were processed

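Single cells of dissociated hypothalamus were measured by Drop-seq, per the labels' protocols. The authors deposited raw UMI counts per gene and cell, whole numbers with no normalization, in a merged table and in tables per library, with 1 cluster name per cell. The genome build is mm9 per the submitters' processing notes, and the aligner is not given in the sources used here. UMI counts capture transcript ends, so levels were compared between classes of a gene rather than between genes.

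Counts were summed per mouse and class. No doublet caller was run, and the sources used here do not say whether doublets were removed. CPM use plain totals. A mouse was used for a class where it had 20 or more of its cells, and a class was tested with 2 or more mice in each group (10 cells for cluster levels). Food-deprived over normal was tested with edgeR 4.0.16 in R 4.3.3 (limma 3.58.1 loaded), a two-sided quasi-likelihood F test with TMM factors and filterByExpr, Benjamini-Hochberg over all genes of the class. The standard error is the fold change over the square root of F, and p-values measure the spread between mice. Alternatives were the labelled batch as a block, DESeq2 1.42.0, no filter on low counts, at least 50 cells, libraries of either Gapdh level, and leaving out each mouse. The fits were tested on simulated data. Sums over 2 to 5 mice a group and 36 to 1109 MO cells a mouse set the precision.

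The members and lists were chosen with earlier results of these data known. Named were all 10 members, every mouse's value for a pair at an unadjusted p under 0.05 or passing with the block, and by smallest p in MO the first 6 of the glucocorticoid list and the first 3 of each other list. Batches pair the mice because the labels say so, in batches 1 and 2. RefSeq promoters on GRCm38.p6 gave sequences only.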

Additional observations from a re-analysis of the deposited data

Results flagged for a closer look

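Over 37 groups of 4 or 5 mice examined, 6 had a mouse whose gap to the nearest other exceeded the critical share of the group's range, and chance gives about 1 in 20. Food deprivation has 3 mice and could not be examined so, and all 6 are normal mice. Cdkn1a in normal mouse 2 stood at 302 CPM in MO (36 cells), with the nearest normal mouse at 65.5 CPM, and at 197 CPM in GABA, with the nearest at 32.1 CPM. In MO the same mouse was also far above the others for Phyhd1, at 75.6 CPM with the nearest at 4.73 CPM, and for Fam107a, at 50.4 CPM with the nearest at 13.4 CPM. Mtf1 in MO of normal mouse 1 was 107 CPM with the nearest at 102 CPM, and Slc39a10 in MO of normal mouse 5 was 20.5 CPM with the nearest at 13.4 CPM.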

How the results depend on the processing

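Of 16 pairs of member and class refitted, 12 kept their direction under every alternative run, and of 229 alternative values 213 kept both direction and side of the threshold. The labelled batch as a replicate block, which rests on 2 pairs of mice, turned Sgk1 in MO to -0.281 (-0.279 in Gapdh-poor libraries, -0.287 without cells whose barcode lies in more than 1 library, an alternative chosen after seeing the data). Tsc22d3 in MO was -0.0197 in Gapdh-poor libraries with the block, Pdk4 in MO -0.486 without food-deprived mouse 2 (range over mice left out -0.486 to 0.853), and Mt2 in OPC -0.0728 and -0.0115 without food-deprived mouse 1 or 2 (range -0.0728 to 0.536). The counts of genes called, 0 in each class, became with the block 17 in MO, 33 in Astro, 20 in OPC, 8 in Ependy, 6 in Tany and 2 in IMO. With the block and without shared-barcode cells they became 18 in OPC, 16 in MO, 7 in Tany, 3 in Glu, 1 in IMO and 0 in Astro and Ependy. In Gapdh-poor libraries with the block they were 37 in MO, 15 in OPC, 8 in Astro, 11 in Epith, 22 in GABA and 22 in Glu. With no filter on low counts they were 37 in Glu, 22 in MO, 21 in Ependy, 19 in Astro, 13 in Tany, 5 in Epith, 4 in Micro and 3 each in IMO, OPC and GABA, and 4 for each difference between classes (2 and 0 as reported). DESeq2 called 1 in MO, and batches 1 and 2 alone 7 for MO against Astro. Leaving out each mouse gave 0 to 1 in MO, OPC and Tany, 0 to 6 in IMO, 0 to 11 in Micro, 1 to 13 for MO against Astro and 0 to 9 for MO against GABA. With no filter, edgeR's adjusted p passed for Mt1 in MO (0.0344), Cdkn1a in MO (3.44e-08) and Tsc22d3 in Ependy (0.0158), and for the Cdkn1a differences of MO with Astro (0.00211) and GABA (0.00436). In Gapdh-poor libraries with the block it passed for Mt1 in MO (0.0105) and Glu (0.019), Cdkn1a in MO (0.0393) and Mt2 in OPC (0.0321), and Mt2 in OPC passed with the block without shared-barcode cells (0.0275). The 10 highest cluster levels stayed within 1 SD in 40 of 40 alternative values. At least 50 cells could not be fitted in Ependy and IMO, Gapdh-poor libraries with the block in those and Tany, and the other libraries alone in those 3 and Micro. The cause of these changes was not tested. Few mice, and few UMIs for Fkbp5, Pdk4 and Hif3a, limit what can be detected.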

Other observations

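Small clusters outside the ordered 19 held further Cdkn1a. In Hista, 17 cells, Cdkn1a had 112 UMIs or 761 CPM over all cells, against neuronal cluster means of 9.50 to 97.7 CPM. Of these cells 11 had a UMI, and the 5 richest cells held 83% of the UMIs. POPC, 51 cells with 2 mice of at least 10 cells, averaged 514 CPM of Cdkn1a, against 123 CPM in OPC, and 784 CPM of Mt2, against 524 CPM in OPC.

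Nr3c1 averaged 436 CPM in GABA17 and 321 CPM in GABA11, each from 2 mice, above every cluster of the order except Epith1, which lay between them at 380 CPM.

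Of 7 receptor pathway genes tested in Ependy, 6 had a negative and 1 a positive fold change, and 0 passed by feeding state alone. In the fit with the labelled batch as a block, Hspa8 (-1.74 ± 0.29, edgeR adjusted p = 0.00826) and Hsp90ab1 (-1.40 ± 0.26, adjusted p = 0.0143) passed, as did the heat shock gene Dnajb1 (-2.89 ± 0.40, adjusted p = 0.00121), beside 8 of 5363 genes (0.149%). Dnajb1 also passed in Astro (-1.47 ± 0.28, adjusted p = 0.00598), with Fosb (-1.04 ± 0.23, adjusted p = 0.0232), beside 33 of 5830 genes (0.566%). By feeding state alone none of these passed, and with the block but without shared-barcode cells 0 genes passed in Ependy or Astro, so these calls were lost. Ependymal markers lay lower in the same cells (15120 to 15560 CPM in food-deprived and 16360 to 18480 CPM in normal mice), and their part was not tested.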
